A study of Mus musculus with 10 samples.

Results

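The genes described here were 9 complement genes of the deposited expression table, which lists 21959 genes. They were taken by symbol as the 3 C1q subunit genes C1qa, C1qb and C1qc, 5 genes grouped as stromal complement (C1ra, C1s1, C3, C4b and Cfb) and 1 receptor gene, C3ar1. RNA was sequenced from 10 tumors, with 1 library per mouse, to ask how voluntary running changed expression in the tumor. The tumors came from 4T1 cells, a line of mouse mammary carcinoma that serves as a triple-negative breast cancer model, which were injected under the skin of the abdomen of BALB/c mice aged 5 to 6 weeks. The 5 mice of the exercise group (E1 to E5) ran voluntarily on wheels for 21 days, and the 5 mice of the non-exercise group (NE1 to NE5) did not. Beyond the running, both groups carried the same cells and no treatment is named for either. The E and NE tumors also shared 3 limits: 1 cell line served all mice, the libraries came from whole tumor tissue, and the skin and muscle around a tumor were not separated from it by any stated step.

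The complement system is a cascade of plasma and tissue proteins that marks cells and debris for uptake. In the classical pathway, C1q recognizes its target, the proteases C1r and C1s are then activated and cleave C4 and C2, and the resulting convertase cleaves C3. Factor B forms the convertase of the alternative pathway, which amplifies the cleavage of C3, and the released fragment C3a signals through the C3a receptor. Most complement proteins of the blood are made in the liver, whereas C1q is known mainly as a product of tissue macrophages and dendritic cells, and C1r, C1s, C3 and C4 can also be made by fibroblasts and epithelial cells.

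The libraries held 15045613 to 23092251 counted reads. Tumors NE1, NE4 and E5 stood apart from the rest. NE1 had the lowest score, the mean of log2(CPM + 1) over a marker list (CPM, the read count scaled by the total count), for 12 macrophage markers (4.51, against 5.65 to 6.69 in E), for 10 fibroblast markers (4.77, against 6.25 to 8.44 in E) and for 6 skeletal muscle markers (0.645). NE4 had the highest muscle score (9.85), and the summed FPKM of the muscle list ran from 4.30 to 9540 in NE and from 116 to 1560 in E. E5 had the highest score for 7 neutrophil markers (5.08, against 1.78 to 2.76 in NE) and the highest fibroblast score (8.44). Of the neutrophil markers, S100a8, S100a9, Csf3r, Cxcr2 and Retnlg were highest in E5 and Mmp9 in E3. Ly6g stayed under 1 FPKM in every tumor. Of 6 epithelial markers, Krt8 and Krt7 stayed under 1 FPKM in every tumor, and Krt18 and Epcam reached at most 1.46 and 1.41 FPKM. Krt19 had 4.59 to 12.6 FPKM and Cdh1 1.42 to 4.44 FPKM. The list summed to 7.98 to 18.6 FPKM. The mice are described as female, yet 4 of the 172 genes that the table places on chromosome Y (Kdm5d, Uty, Ddx3y and Eif2s3y) had at least 10 reads in each tumor, with a sum of 12.7 CPM in NE1 to 60.1 CPM in NE4. In bulk tissue, fewer cells of a type and less RNA per cell cannot be told apart.

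In the GRCm38 annotation the 3 C1q genes form one cluster of 18675 bases on the reverse strand (chr4:136880129-136898803), in the order C1qb, C1qc and C1qa. C1ra (chr6:124512405-124523443, forward strand) and C1s1 (chr6:124530345-124542359, reverse strand) are neighbors with opposite strands and lie 6901 bases apart. The stretch just before the start of a gene is shown for C1qb, C3 and C1s1, because these 3 genes stand for the 3 patterns over tumors described next: C1qb for C1q and C3ar1, which shared their extreme tumors, C3 for those of the widest variation and C1s1 for those of the narrowest. The sequences are 250 bases long, are printed on the strand of the gene up to the last base before the start, and are those of RefSeq for GRCm38.p6. Capitals mark the matches to 4 motifs searched on both strands, which are the PU.1 box GAGGAA, the C/EBP site TTGCGNAA, the GAS site TTCNNNGAA and the TATA box TATAAA.
C1qb, chr4:136886201-136886450, reverse strand: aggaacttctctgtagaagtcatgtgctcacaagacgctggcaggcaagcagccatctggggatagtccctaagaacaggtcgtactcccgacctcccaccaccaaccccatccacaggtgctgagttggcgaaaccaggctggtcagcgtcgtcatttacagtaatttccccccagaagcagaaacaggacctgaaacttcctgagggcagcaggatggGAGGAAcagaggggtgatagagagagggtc
C3, chr17:57228137-57228386, reverse strand: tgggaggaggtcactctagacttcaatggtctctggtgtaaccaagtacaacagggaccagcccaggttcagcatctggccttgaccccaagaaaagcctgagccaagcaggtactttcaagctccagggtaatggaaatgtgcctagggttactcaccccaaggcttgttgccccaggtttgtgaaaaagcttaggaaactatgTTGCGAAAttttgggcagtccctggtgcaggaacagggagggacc
C1s1, chr6:124542360-124542609, reverse strand: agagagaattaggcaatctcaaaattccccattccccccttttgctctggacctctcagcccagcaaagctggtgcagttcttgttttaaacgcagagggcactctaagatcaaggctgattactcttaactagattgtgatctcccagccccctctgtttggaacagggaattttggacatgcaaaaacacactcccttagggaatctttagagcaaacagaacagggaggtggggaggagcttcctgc
The C1qb window held GAGGAA with its first base at -30, counted back from -1 as the base before the start, and 23.3% of the 32817 RefSeq windows of this length held that motif. The C3 window held TTGCGAAA, a match to TTGCGNAA, with its first base at -45, and 0.670% of all windows held a match to this motif. The C1s1 window held none of the 4 motifs. RefSeq gives 2 start sites for C1s1, of which the first listed was used. A window was also given for C3ar1, where TATAAA began at -235 (12.4% of all windows held it), and for C1qc and C1ra, where 151 and 216 of the 250 bases lay in exons of the GRCm38 annotation. The C1qc window also held the PU.1 box, on the opposite strand with its first base at -193. TTCNNNGAA, held by 7.01% of all windows, was found in none of these 6 genes. C1qa, C4b and Cfb had no entry.

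C1qb and C1qa were the most abundant of the 9 genes by mean FPKM, C1qc lay in the range of C3, and the 3 C1q messages rose and fell together from tumor to tumor. C1qa, which encodes the A chain, had 347, 272, 214, 250 and 351 FPKM in E1 to E5 and 121, 277, 306, 332 and 259 FPKM in NE1 to NE5. FPKM is the read count corrected for exon length and library size, so that levels of different genes can be set beside each other. C1qb, for the B chain, had 383, 288, 223, 251 and 394 FPKM in E1 to E5 and 116, 280, 336, 350 and 284 FPKM in NE1 to NE5. C1qc, for the C chain, had 151, 114, 88.6, 101 and 153 FPKM in E1 to E5 and 51.4, 113, 128, 137 and 115 FPKM in NE1 to NE5. All 3 were lowest in NE1 and highest in E5, and the E and NE values overlapped. The C1q trimer holds 1 of each chain, and the ratios between their FPKM were narrow. C1qb over C1qa was 1.05 ± 0.0523 (SD, n = 10 tumors) and C1qc over C1qa was 0.422 ± 0.0136, with coefficients of variation of 4.95% and 3.22%, although the level of C1qa itself varied 2.91-fold. On the scale of log2(FPKM + 1), the SD of C1qa, C1qb and C1qc over the 10 tumors was larger than for 93.9%, 95.1% and 94.0% of the genes tested. This scale narrows the SD of genes with low FPKM, so that such ranks, here and below, depend partly on level. Together the 3 genes made up 63.7% to 77.6% of the summed FPKM of the 9 genes. No 50-base stretch of their transcripts occurred in another gene, as was also found for C3 and C3ar1.

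**Figure D1:**
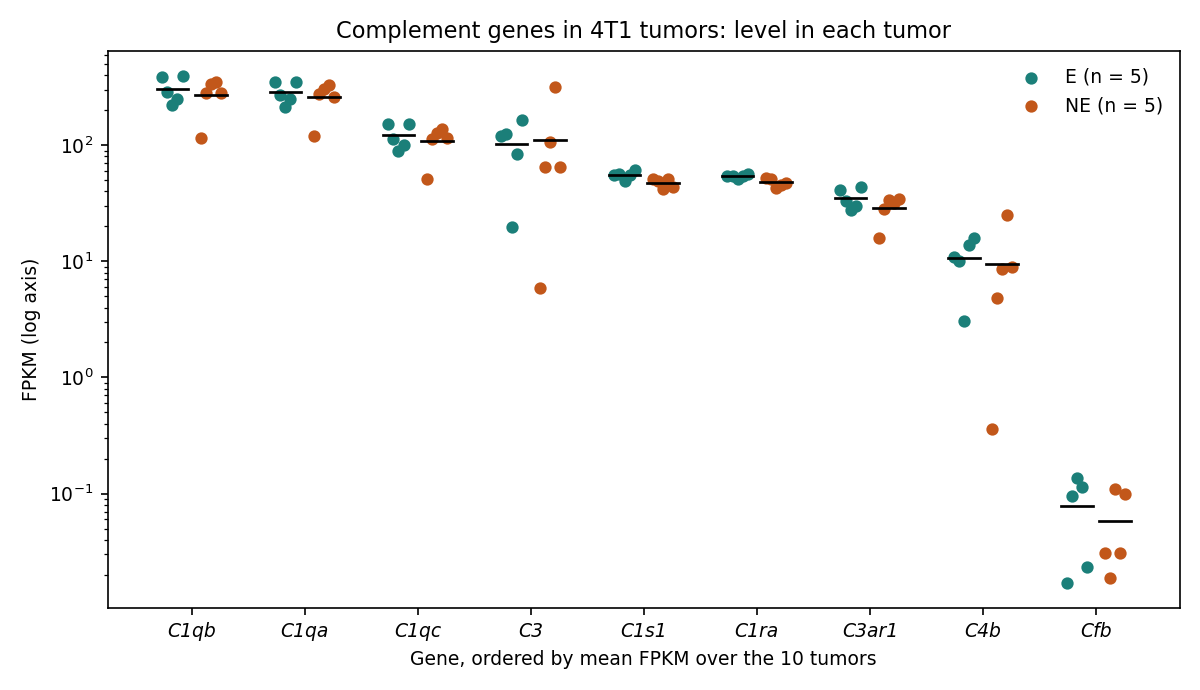
FPKM (log axis) of the 9 complement genes in each tumor, ordered by mean level, with green points for E, orange points for NE and black lines for the group means (n = 5 each). C1qb and C1qa have the highest means, C1qc lies near the means of C3, C1s1 and C1ra are tightly grouped near 51 FPKM, C3 and C4b spread widely within both groups, with C3 up to 314 FPKM in NE4, and Cfb lies near 0.1 FPKM.

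C3 and C4b varied far more between tumors than any other member, and this spread lay within both groups. C3, the central component of the cascade, had 121, 126, 19.8, 83.7 and 166 FPKM in E1 to E5. In NE1 to NE5 it had 5.92, 65.0, 107, 314 and 64.9 FPKM, so that the lowest and the highest tumor were both NE tumors and differed 53.1-fold. C4b, which encodes C4, a part of the classical convertase, had 10.9, 10.1, 3.04, 13.9 and 15.9 FPKM in E1 to E5. It had 0.357, 4.87, 8.59, 24.9 and 8.96 FPKM in NE1 to NE5. The extremes fell in the same tumors as for C3, NE1 and NE4, and differed 69.6-fold, although the low end rested on 47 reads. On the scale of log2(FPKM + 1), the SD over 10 tumors was 1.57 for C3 and 1.21 for C4b, larger than for 99.6% and 99.0% of the 13517 genes tested, for which the median SD was 0.145. Muscle and adipocyte markers were also highest in NE4. The part of either marker list in the C3 and C4b levels was not tested. Hepatocyte markers were near 0, with 6 markers summing to 0.382 to 1.23 FPKM and 5 of them under 1 FPKM in every tumor. C4b shared 34.6% of its 50-base stretches with C4a, a close copy that is not listed in the table, so that C4b reads may include reads of that copy.

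C1ra and C1s1, the genes of the proteases that C1q activates, varied the least of the 8 measured genes. C1ra had 54.7, 54.3, 51.4, 54.4 and 56.0 FPKM in E1 to E5 and 52.4, 50.7, 43.2, 45.5 and 47.1 FPKM in NE1 to NE5. C1s1 had 55.0, 56.4, 49.4, 55.7 and 60.9 FPKM in E1 to E5 and 51.6, 48.7, 41.6, 50.7 and 43.8 FPKM in NE1 to NE5. NE1, the tumor in which C1q, C3 and C4b were lowest, had the highest C1ra and C1s1 of the NE tumors. Their SD on the scale of log2(FPKM + 1) was 0.124 and 0.165, larger than for 36.8% and 60.1% of the genes tested. The ratio of C1s1 to C1ra was 1.01 ± 0.0595 (SD, n = 10). Of the 50-base stretches, C1ra shared 48.0% with its copy C1rb, and C1s1 shared 21.8% with C1s2. The 2 copies were counted at 1 to 10 and 1 to 16 reads, whereas C1ra had 2511 to 3606 reads. In addition, 18.4% of the exonic bases of C1s1 lie opposite the antisense gene Gm16567, and the strand used in counting is not given in the sources used here.

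Cfb, the gene of factor B, had too few reads in this table for its level to be measured. It was counted at 1, 5, 8, 6 and 1 reads in E1 to E5 and at 2, 1, 7, 2 and 6 reads in NE1 to NE5, or 0.0171 to 0.137 FPKM. In the annotation, 79.5% of its exonic bases lie in exons of the overlapping gene Gm20547 on the same strand, which was listed at 0 reads in every tumor. The table held 371 protein-coding genes with at least 75% of their exonic bases in exons of other genes on either strand. Of these, 88.1% had no more than 8 reads in any tumor, against 36.9% of the 15294 genes with no such overlap. C2, with 46.9% of its exonic bases in exons of other genes, Gm20547 among them, had 66 to 151 reads. Whether reads in shared exons were left out of the counts, or Cfb was little expressed, was not tested. No fold change is given for Cfb.

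C3ar1, the receptor for C3a found on myeloid cells, had its extremes in the same tumors as C1q. It had 41.4, 33.4, 27.6, 29.8 and 43.5 FPKM in E1 to E5 and 15.8, 28.1, 33.7, 32.0 and 34.7 FPKM in NE1 to NE5. Like C1q it was lowest in NE1 and highest in E5, and the groups overlapped. Its SD on the scale of log2(FPKM + 1) was larger than for 91.5% of the genes tested. Its ratio to C1qa had a coefficient of variation of 10.6%, against 70.6% for the ratio of C3 to C1qa and 42.3% for that of C1ra to C1qa. The ratio of C3 to C1qa ran from 0.0490 in NE1 to 0.946 in NE4.

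By mean FPKM the order of the 8 measured genes was C1qb, C1qa, C1qc, C3, C1s1, C1ra, C3ar1 and C4b. Neighbors in this order were compared within tumors on log2(FPKM + 1) by exact two-sided sign-flip permutation tests, adjusted over the 7 pairs, for which the smallest possible p is 0.00195. The order was taken from these same values, so that the tests are no independent check of it. For 4 of the 7 pairs the FPKM differed (adjusted exact p of 0.00456, and 0.0205 for C1qb and C1qa). C1qb was higher than C1qa in 9 of 10 tumors, by 0.0753 on average. FPKM corrects for exon length and library size only, so that a gap this small is not read as a difference in message level. C1qc and C3 (adjusted exact p = 0.213), C3 and C1s1 (adjusted exact p = 0.387) and C1s1 and C1ra (adjusted exact p = 0.775) did not differ beyond the spread over tumors. Set against the stromal genes without Cfb, C1q was higher by 2.40 ± 0.338 in E and by 2.54 ± 0.356 in NE (SD, n = 5 each), as the difference between the means of log2(FPKM + 1) over the 3 C1q genes and over C1ra, C1s1, C3 and C4b. E and NE were apart by -0.14 in this difference, less than either SD. With Cfb among the stromal genes, whose near-absent reads raise the difference, the values were 3.45 ± 0.267 and 3.53 ± 0.233.

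**Figure D2:**
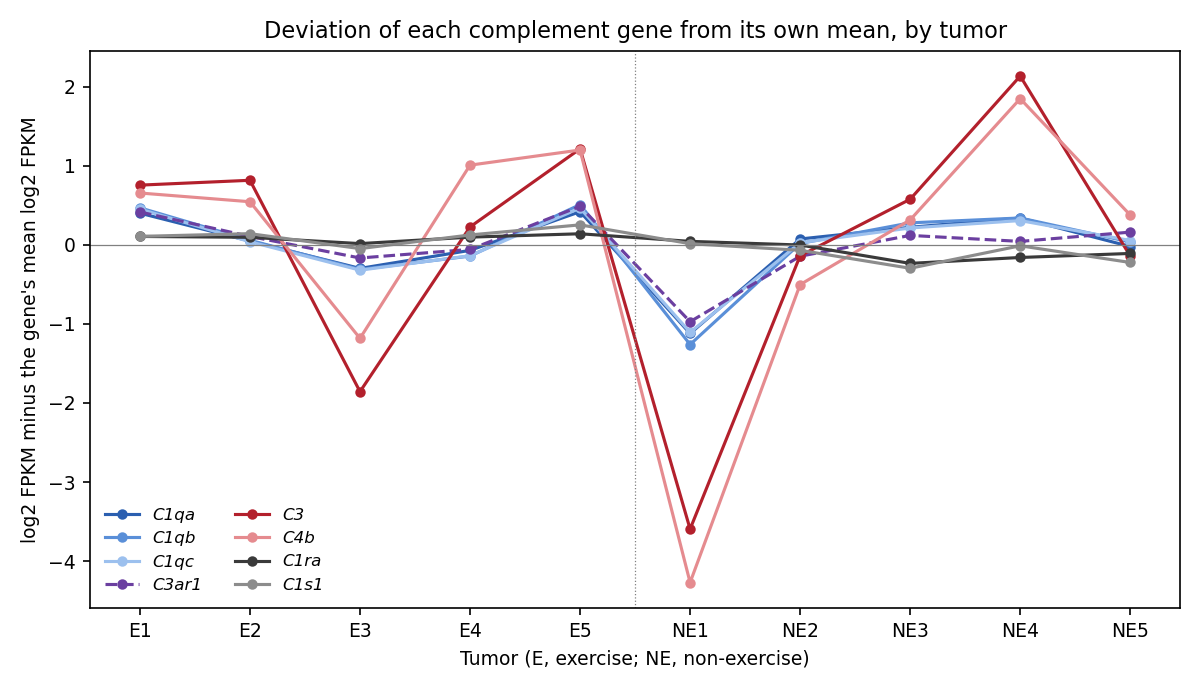
Deviation of each gene from its own mean on the log2 FPKM scale (y axis) in tumors E1 to E5 and NE1 to NE5 (x axis), 1 line per gene, without Cfb. The C1q lines lie on each other with C3ar1 close to them, C3 and C4b make wider swings with their extremes in NE1 and NE4, and C1ra and C1s1 stay near 0.

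Over the 10 tumors, C3 and C4b varied with each other and with C1q, and C1ra and C1s1 varied with each other. Relations were computed across the 10 tumors on log2(CPM + 1) for the 36 pairs of members and for each member with the macrophage and the fibroblast score, 54 relations in all, with permutation tests of 100000 resamples and Benjamini-Hochberg adjustment over the 54. Pearson's r was at an adjusted permutation p of at most 0.05 in 28 of them, and in 4 without the 2 tumors farthest from the median. Those 4 were the relations within C1q and that of C1ra and C1s1. Among the C1q genes r was 0.995 to 0.999 (Spearman's rho 0.927 to 1, adjusted permutation p of 0.00027 to 0.00036), and 0.986 to 0.996 without the 2 tumors farthest from the median. C3 and C4b had an r of 0.963 (rho 0.891, adjusted permutation p of 0.00116 and 0.00707), and 0.840 without the 2 farthest tumors, E3 and NE1. C1ra and C1s1 had an r of 0.857 (rho 0.818, adjusted permutation p of 0.00564 and 0.0231), and 0.962 without NE3 and NE4.

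C3 and C4b varied with C1q, with an r of 0.906 to 0.938 over the 6 pairs (rho 0.685 to 0.855, adjusted permutation p of 0.00116 to 0.00735 for r and 0.0139 to 0.0801 for rho), which was 0.605 to 0.820 without the 2 farthest tumors. C3ar1 varied with C1q as well, with an r of 0.942 to 0.961 (rho 0.733 to 0.915, adjusted permutation p of 0.0014 to 0.00341 for r and 0.00459 to 0.0574 for rho), and 0.802 to 0.846 without the 2 farthest. With C3 and C4b, C3ar1 had an r of 0.847 and 0.879 (rho 0.709 and 0.661, adjusted permutation p of 0.0126 and 0.0147 for r, 0.0708 and 0.0951 for rho), but 0.379 and 0.364 without E3 and NE1, so that this relation rested on those tumors. The relations of C1q with C3, C4b and C3ar1 were not past the threshold without the 2 farthest tumors either. For C1qa the adjusted permutation p of r was then 0.0663, 0.223 and 0.0663, and it was 0.069 for C3 with C4b. C1ra and C1s1 had no relation past the threshold with C1q, with an r of -0.109 to 0.142 (rho -0.0182 to 0.224, adjusted permutation p of 0.930 for r and 0.675 to 0.973 for rho), which was -0.362 to 0.195 without the 2 farthest tumors. With C3 and C4b, C1ra and C1s1 had an r of -0.113 to 0.241 (rho 0.164 to 0.612, adjusted permutation p of 0.819 to 0.985 for r and 0.128 to 0.740 for rho), which was 0.319 to 0.623 without the 2 farthest. These pooled values joined opposite signs in the groups. Within the 5 E tumors r was 0.715 to 0.875 with C1q and 0.857 to 0.903 with C3 and C4b, and within the 5 NE tumors it was -0.60 to -0.206 and -0.544 to -0.0506. A group of 5 is too few tumors for a relation to be read from either, and the difference between E and NE was not tested. Without NE1 the number of relations past the threshold fell from 28 to 14, since r of C1qa and C4b, for example, fell to 0.700 (adjusted permutation p = 0.0884).

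**Figure D3:**
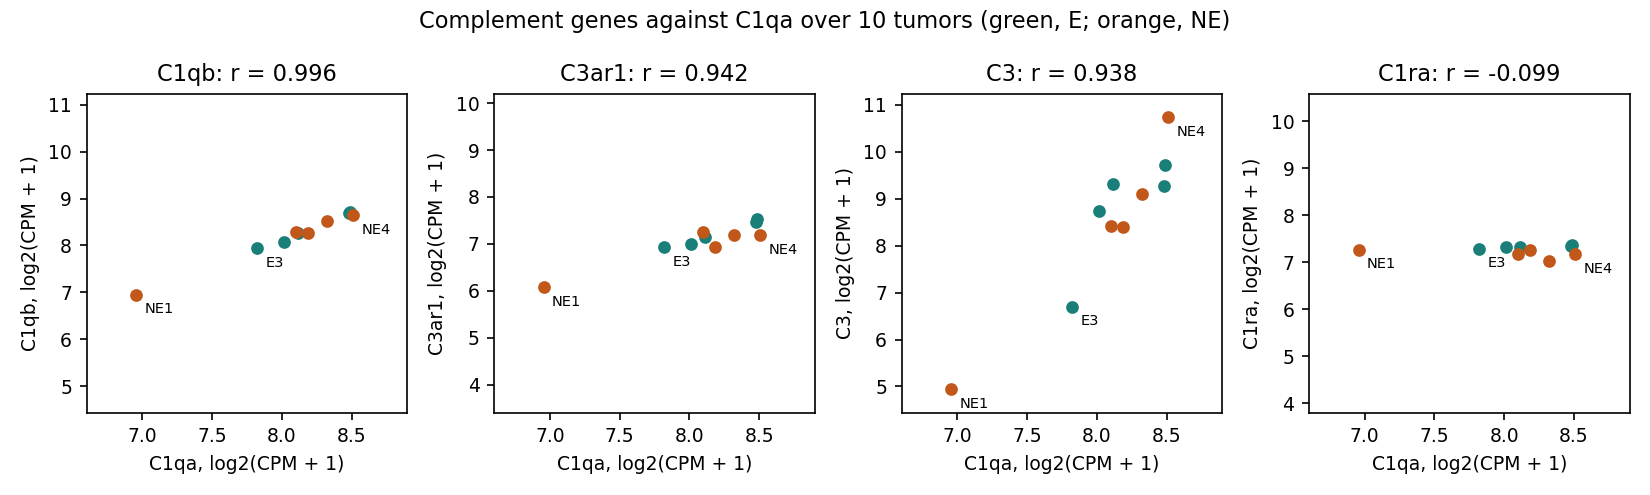
C1qb, C3ar1, C3 and C1ra (y axes) against C1qa (x axis) on log2(CPM + 1) in 10 tumors, green for E and orange for NE, with Pearson's r above each panel and equal spans on all y axes. C1qb and C3ar1 follow C1qa with a narrow spread, C3 rises more steeply from NE1 to NE4, and C1ra is flat.

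Against the marker scores, C1q, C3ar1, C3 and C4b all had relations past the threshold with both scores, none of them without the 2 farthest tumors. Both scores were lowest in NE1 (4.51 for macrophages, 4.77 for fibroblasts) and highest in E5 (6.69 and 8.44). The relations with the 2 scores are therefore not independent of each other. C1qb had an r of 0.954 with the macrophage score (rho 0.903, adjusted permutation p of 0.000945 and 0.00459), which was 0.823 without E5 and NE1, and C3ar1 one of 0.952 (rho 0.915, adjusted permutation p of 0.00233 and 0.00459), which was 0.665 without E5 and NE1. With the fibroblast score, the C1q genes had an r of 0.759 to 0.762 (rho 0.6 to 0.612, adjusted permutation p of 0.0375 to 0.0383 for r and 0.128 to 0.137 for rho) and C3ar1 one of 0.801 (rho 0.661, adjusted permutation p of 0.0254 and 0.0951), but without the 2 farthest tumors these were 0.0965 to 0.345 and 0.0904. The macrophage list does not hold C1q. C3 and C4b had an r of 0.907 and 0.938 with the macrophage score (rho 0.830 and 0.806, adjusted permutation p of 0.00341 and 0.00339 for r, 0.0229 and 0.0259 for rho) and of 0.795 and 0.863 with the fibroblast score (rho 0.794 and 0.903, adjusted permutation p of 0.0209 and 0.00597 for r, 0.0309 and 0.00492 for rho). Without E3 and NE1 these 4 values were 0.616, 0.633, 0.463 and 0.665. C1ra and C1s1, although grouped as stromal, had an r of 0.162 and 0.423 with the fibroblast score (rho 0.152 and 0.467, adjusted permutation p of 0.930 and 0.410 for r, 0.751 and 0.280 for rho), and neither passed the threshold. As with C1q, the signs within the groups were opposite, at 0.744 and 0.896 in E and -0.450 and -0.0976 in NE (n = 5 each, not tested). Without NE3 and NE4 for C1ra, and NE3 and NE5 for C1s1, the 2 values were 0.338 and 0.789.

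Over all genes tested, those with the highest r to each member were listed as a description. For C1qa the 3 nearest were C1qb, C1qc and Plcg2 (r = 0.994), a phospholipase of immune cell signaling, and for C1qb and C1qc the nearest gene outside C1q was Hcls1 (r = 0.994 and 0.993), which is expressed in blood cells. C3ar1 was nearest to Trem2 (r = 0.975), a receptor of macrophages, Slc7a8 (r = 0.971), an amino acid transporter, and Itgam (r = 0.968), the alpha chain of complement receptor 3. C3 was nearest to Serpina3n (r = 0.992), a protease inhibitor of the acute phase, Prelp (r = 0.985), a matrix protein, and Rasgrp4 (r = 0.981). C4b was nearest to Mgst1 (r = 0.980), Glipr2 (r = 0.978) and Clec10a (r = 0.977), a lectin of macrophages and dendritic cells. For C1ra the highest r was 0.940, with Arl2bp, and for C1s1 it was 0.939, with Chst3, a gene at 0.238 FPKM. These values are over 10 tumors and come from shared libraries.

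Exercise was not followed by a called change in any of these genes. The limits for a call were a 2-fold difference and an FDR of 0.05 in edgeR's quasi-likelihood test, by which 0 of the 13517 genes tested were called (0%), with a smallest FDR of 0.897. Of the 9 genes, 8 passed the filter on low counts, all but Cfb, and 0 were called. DESeq2 likewise called 0 genes at both limits. At an unadjusted p under 0.05, edgeR gave 657 genes, of which 347 were higher in E (2.57%) and 310 lower (2.29%), and scaling by total count alone gave 472 higher and 160 lower. Among the members, 2 of the 8 passed this looser limit, both of them higher in E. The median log2 fold change of the 8 members was 0.12, against -0.01 over all genes tested.

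The 2 genes were C1ra and C1s1, which are not independent of each other. C1ra had 54.1 ± 1.69 FPKM in E and 47.8 ± 3.77 FPKM in NE (SD, n = 5 each). Its log2 fold change in edgeR was 0.15 (SE 0.0543, unadjusted p = 0.0201, FDR = 0.897), and 24 of the 25 pairs of an E and an NE tumor had the higher value in E. NE1 alone reached the range of E, above E3. C1s1 had 55.5 ± 4.09 FPKM in E and 47.3 ± 4.38 FPKM in NE, with a log2 fold change of 0.20 in edgeR (SE 0.0754, unadjusted p = 0.0248, FDR = 0.897), and 23 of 25 pairs were higher in E. Exact two-sided permutation tests on log2(FPKM + 1) gave a p of 0.0159 for C1ra and 0.0238 for C1s1, where the smallest p that 5 against 5 tumors can give is 0.00794. The unadjusted edgeR p of C1s1 rose to 0.0608 without E5, 0.0574 without NE3 and 0.0595 without NE5, and that of C1ra stayed under 0.05 without any one tumor.

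The C1q genes and C3ar1 were slightly higher in E on average and within the spread between tumors. The log2 fold change in edgeR was 0.10 for C1qa (SE 0.253), 0.13 for C1qb (SE 0.282), 0.12 for C1qc (SE 0.257) and 0.25 for C3ar1 (SE 0.214), with an FDR of 0.957 for C1qa and 0.897 for C3ar1. For C1q the direction rested on NE1, without which the 3 values were -0.067, -0.055 and -0.054, while C3ar1 was then at 0.10. The log2 fold change of C3 was -0.18 (SE 0.812) in edgeR, and the direction was not settled, as it was 0.09 without E3 and 0.75 without NE4. C4b was at 0.11 (SE 0.772) in edgeR, and at -0.20 without NE1 and 0.90 without NE4. With standard errors of this size, a change of C3 or C4b by a factor of 2 could not be told from none.

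**Figure D4:**
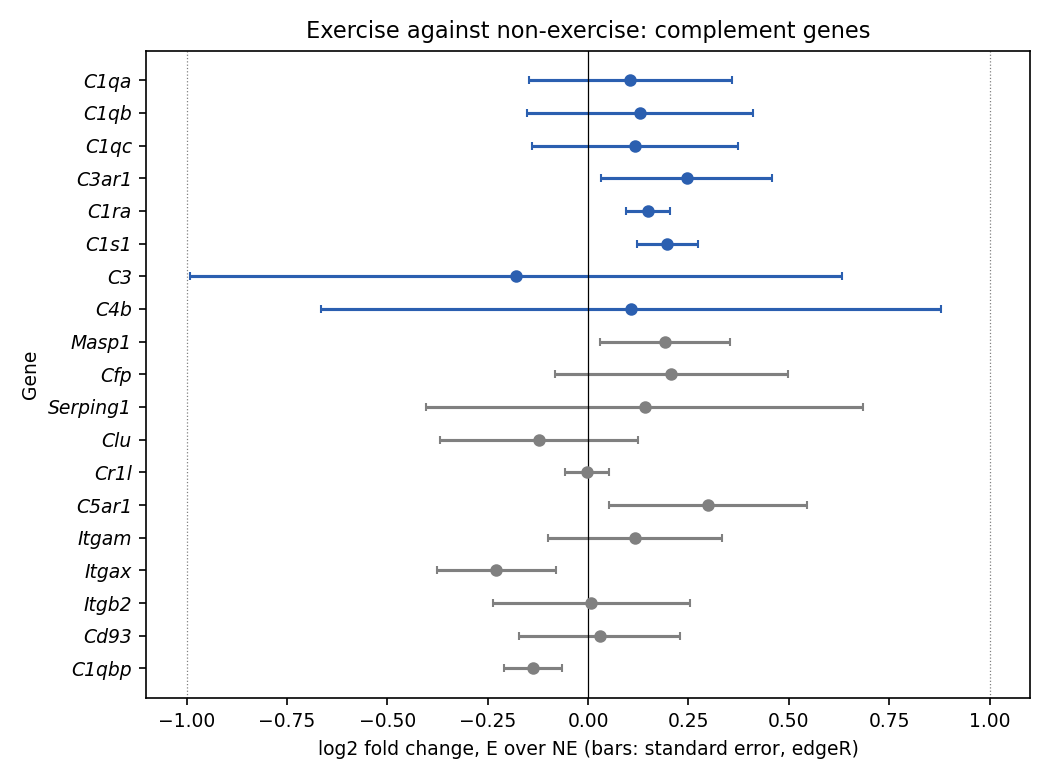
Log2 fold change of E over NE in edgeR (x axis, bars for the standard error derived from the F statistic) for the 8 members tested (blue) and 11 of the other complement genes with a mean of at least 10 FPKM (gray), with dotted lines at a fold change of 2. None of the genes plotted reaches those lines, C1ra and C1s1 have the narrowest bars among the members, and C3 and C4b the widest.

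Beyond the 9 genes, a list of 48 further complement genes was examined, of which 47 are in the table, 25 passed the filter and 0 were called. At an unadjusted p under 0.05, 1 of the 25 was higher in E (against 2.57% of all genes) and 0 were lower (against 2.29%), and their median log2 fold change was 0.06. The 1 gene was C8g, a chain of the terminal component C8, with 1.79 ± 0.313 FPKM in E and 1.26 ± 0.235 FPKM in NE (SD, n = 5 each), a log2 fold change of 0.47 (SE 0.192) in edgeR, an FDR of 0.897 and an unadjusted p of 0.0322. That p stayed under 0.05 without E1, E5 or NE5, but was 0.0537 to 0.0870 without any one of the other tumors and 0.0612 with the replicate number as a block.

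Only 12 of the 47 had a mean of at least 10 FPKM, and 26 were under 1 FPKM, with 3 at 0 reads. Of the initiating proteases, Masp1 of the lectin pathway had 13.3 ± 2.48 FPKM (SD, n = 10) and C2, which C1s cleaves, 1.36 ± 0.191 FPKM, but 42.8% of the exonic bases of C2 lie in exons of Gm20547. Properdin (Cfp), which stabilizes the alternative convertase, had 57.1 ± 17.2 FPKM and was lowest in NE1 (21.8) and highest in E5 (82.9). Factor D (Cfd), which activates factor B and is made by adipocytes, ran from 1 read in NE1 to 32.2 FPKM in NE4, the tumor with the highest adipocyte score. Among the regulators, the C1 inhibitor Serping1 ran from 11.8 FPKM in NE1 to 107 FPKM in NE4, the same extremes as C3 and C4b, whereas Cr1l, a membrane regulator, held 10.9 ± 0.556 FPKM. Clusterin (Clu), another regulator, ran from 30.4 FPKM in NE5 to 78.7 FPKM in NE4. The receptors were led by Itgb2 (68.9 ± 17.7 FPKM), the beta chain shared by complement receptors 3 and 4. C1qbp, also in the receptor list, followed at 44.8 ± 3.79 FPKM. Further receptors were Itgam (16.9 ± 3.69 FPKM), Itgax (13.5 ± 2.56 FPKM), the C5a receptor C5ar1 (21.6 ± 6.17 FPKM) and Cd93 (18.5 ± 4.05 FPKM). Of the terminal genes from C5 (Hc) to C9, C8g was the highest at 1.53 ± 0.383 FPKM, followed by C7 at 1.48 ± 1.58 FPKM.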

How the data were processed

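Total RNA was extracted from 10 tumors for what the paper calls mRNA sequencing, with 1 library per mouse. By the methods of the study, Hisat2 was used for alignment and Stringtie for expression. What the authors deposited is 1 table of a whole-number read count, not normalized, and an FPKM per gene and tumor. The deposited FPKM equal the count divided by gene length and total count, without a TMM factor. How the counts were made is not stated. The genome build is not named, the methods name a rat assembly while the identifiers are mouse Ensembl ones, and the coordinates are not those of GRCm38. Coordinates and overlaps given here come from the GRCm38 annotation by gene identifier, and were not converted. Names of replicates 1 to 5 come from the labels, which name no pairs. The paper speaks of 5 matched pairs in its results, but its methods describe random division into groups and do not say how tumors were matched.

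From the counts, E and NE were compared with edgeR 4.0.16 in R 4.3.3 (TMM scaling, the filterByExpr filter, the quasi-likelihood test glmQLFTest after glmQLFit, Benjamini-Hochberg adjustment). The test was run on simulated negative binomial counts of 13517 genes, of which 200 were given a log2 fold change of 1.2. At an FDR of 0.05 it recovered 153 of them, with 12 false calls. No simulated tumor was set apart as NE1, NE4 and E5 were, so that C3 and C4b are not covered by this check. DESeq2 1.42.0, limma-trend (limma 3.58.1), other scalings and filters, the replicate number as a block, a pseudocount of 0.1 and leaving out tumors were the alternatives. Leaving out NE1, NE4 and E5, or Cfb, was added after seeing the data. The standard errors (SE) given with edgeR's fold changes are not an output of its test. They were derived as the absolute log2 fold change divided by the square root of the F statistic. Single values were tested by exact permutation (Python 3.11.15, scipy 1.17.1, 252 assignments). Counts, at 15045613 to 23092251 per tumor, carry counting error only in part, since PCR copies were not told apart. The named genes are the 9 members, the 3 genes nearest to each of them, genes of the wider complement list with a mean of at least 10 FPKM, and those past an unadjusted p of 0.05, of which 1 gene is not reported here. C2, C7, Cfd, C1rb, C1s2 and the overlapping genes were named after their values were seen. The members and lists were chosen with earlier results of these data known. Tumor sizes, protein levels and cell experiments were not analysed here.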

Additional observations from a re-analysis of the deposited data

Results flagged for a closer look

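In groups of 5 tumors, 34 sets of values of the members were searched for a tumor far from the other 4 by Dixon's test, and 3 passed its limit, where chance gives about 1 in 20 sets, or 1.7. C1qc was low in NE1 at 51.4 FPKM, where the other NE tumors had 113 to 137 FPKM. The difference between C1q and stromal complement genes on log2(FPKM + 1) was low in NE4 among the NE tumors at 3.13, or 1.93 without Cfb. C3 and C4b were highest in NE4. Yet E4, with C3 at 83.7 FPKM, had a difference of 3.12, or 2.06 without Cfb. The ratio of C1ra to C1qa was high in NE1 at 0.434. The lowest macrophage score (4.51) was also that of NE1, and the highest muscle score (9.85) that of NE4. The part of these tissues in the 3 values was not tested.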

How the results depend on the processing

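No alternative called a gene at both limits, a 2-fold difference and an FDR of 0.05. With an unadjusted p of 0.05 in place of the FDR, 56 genes passed in edgeR, 72 in DESeq2 and 250 in edgeR without a filter on low counts, none of them a member. DESeq2 gave 3 genes at an FDR of 0.05 alone, against 0 in edgeR, none of them a member.

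Leaving out 1 tumor in turn moved the log2 fold changes of C1qa from -0.067 to 0.24, of C1qb from -0.055 to 0.26, of C1qc from -0.054 to 0.24, of C3 from -0.47 to 0.75 and of C4b from -0.20 to 0.90, while C1ra (0.11 to 0.19), C1s1 (0.15 to 0.24) and C3ar1 (0.10 to 0.32) kept their sign. C4b was below 0 without E4, E5, NE1 or NE2. C3 was at 0.43 in limma-trend on log2(FPKM + 1), 0.33 with the replicate block, 0.38 without NE1 and NE4, and 0.13 without NE1, NE4 and E5. Without these 3 tumors C1qa was at -0.068, C1qb at -0.083 and C1qc at -0.079. The cause of these changes was not tested.

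With Cfb kept in the order of levels, 5 of 8 neighboring pairs differed, and 5 to 6 of them without any 1 tumor. Of the 54 relations, 28 were past the threshold, 4 without the 2 tumors farthest from the median, 14 without NE1 and NE4, 4 without NE1, NE4 and E5, and 14 to 28 without any 1 tumor. Without the 2 farthest tumors and without NE1 and NE4, r of C1qa and C1ra was 0.0191 (-0.233 to 0.0498 without 1 tumor in turn). With NE1, NE4 and E5 left out, r of C1qa and C1s1 was -0.113 (-0.00984 to 0.347 without 1 tumor). The macrophage score and C1ra had an r of 0.293 without the 2 farthest tumors and 0.183 without NE1 and NE4 (-0.221 to 0.0789 without 1 tumor). For that score and C1s1, r was -0.179 without NE1, NE4 and E5 (-0.0202 to 0.409 without 1 tumor). The fibroblast score and C1ra had -0.0994 to 0.284 without 1 tumor.

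The paper speaks of 5 matched pairs, but which tumors would form a pair is not stated. Tumors with the same replicate number deviated together with an r of -0.325 to 0.316, and 1 of the 5 E tumors was nearest to the NE tumor of its own number. These values cannot show whether the mice were matched. The main test was unpaired, and the replicate number was used as a block in an alternative. With the replicate block, 0 genes were called, and the log2 fold changes were 0.15 for C1ra and 0.20 for C1s1. Depth limits the precision of low counts, such as C4b in NE1 at 47 reads.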
